A study of Homo sapiens with 4 samples.

Results

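The genes described here are the Notch receptors NOTCH1, NOTCH2 and NOTCH3, the ligands JAG1, JAG2 and DLL1, and the HES and HEY transcription factors HES1, HES4, HEY1 and HEYL, in DAOY, an established human medulloblastoma line. They were chosen by name as the Notch genes of these cells, and all 10 are among the 20363 genes with counts and the 14970 that were tested. The cells were controls (CTL) or carried a lentiviral vector that expresses ZNF521, a zinc finger transcription co-factor, together with EGFP. Both kinds received either DMSO, the vehicle, or SAG, given after starvation, which activates the Sonic hedgehog (SHH) pathway through SMO. Each of the 4 conditions, named CTL-DMSO, CTL-SAG, ZNF521-DMSO and ZNF521-SAG below, was read in 1 library and has no replicate. The deposited description calls the control cells WT while the methods describe a control vector, so that transduction itself cannot be told apart from ZNF521 if the controls carried none. The transduced cells were sorted for EGFP, and nothing states whether the libraries of 1 kind of cells came from separate cultures, so that p-values measure the spread between these libraries only.

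Notch signalling passes between cells that touch. A ligand of the Jagged or Delta family on 1 cell binds a receptor on its neighbour, proteases of the ADAM family and gamma-secretase then cut the receptor, and the freed intracellular part enters the nucleus, where it joins RBPJ and a MAML co-activator on target genes such as HES1 and HEY1. The HES and HEY proteins are themselves repressors that hold back differentiation. In the developing cerebellum NOTCH2 is the receptor best known in granule neuron precursors, and HES1 is known to respond to Hedgehog signalling as well as to Notch.

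Total counts ran from 12294833 to 16314685 per library, and normalized counts are counts divided by the authors' size factor of the library. ZNF521 stood at 713.7 and 751.1 in the CTL libraries and at 2013 and 2072 in the ZNF521 libraries. GLI1, the SHH target and effector, stood at 75.4 (CTL) and 44.2 (ZNF521) with DMSO and at 323.7 (CTL) and 318.1 (ZNF521) with SAG. ZNF521 thus differed by vector and GLI1 by treatment as the labels have it. By RT-qPCR the paper reports higher GLI1 in DAOY cells with ZNF521, which these single libraries did not show. CTL-DMSO was the most distant library, with an SD of 0.273 for log2 deviations from each gene's mean, against 0.126 to 0.142 in the other 3 (9161 genes whose normalized counts averaged 200 or more). Of 8 markers of granule neuron precursors and medulloblastoma, 5 had at least 10 counts in every library, while ATOH1, which defines the precursors, and BARHL1 were at or near 0, with normalized counts of 0.844 to 1.13 and of 0 to 2.06. Summed endothelial markers stood at 205 normalized counts in CTL-DMSO and at 168 to 218 in the others. Astrocyte and radial glia markers stood at 2020 there, below the 2057 to 2278 of the others. The summed markers of fibroblasts and of mural and smooth muscle cells were highest in CTL-DMSO. All 6 fibroblast markers were present, with a summed normalized count of 44429 there and of 19821 to 21735 in the others, although LUM and PDGFRA were lowest there. All 6 mural and smooth muscle markers were present too, with 2988 there and 1640 to 2007 in the others, although RGS5 and DES were lowest there. ACTA2 was highest in CTL-SAG, at 734 against 693 in CTL-DMSO. None of the fibroblast or mural and smooth muscle markers was at 0. Of 5 immune markers none reached 10 counts in every library, and PTPRC, which defines the class, ran from 0.844 to 4.02. In such bulk RNA, fewer cells of a type and less RNA per cell cannot be told apart. All libraries are of the line DAOY, so that counts of a marker need not mean that cells of that type were present.

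The promoters of 3 target genes are shown because they carry the letters that RBPJ recognises and because their transcripts varied to unequal degrees among the libraries. Of the 10 genes, 8 had an entry in RefSeq's promoter sequences (GRCh38.p14). Each line gives the 250 bases before the start that RefSeq gives the gene, 5′ to 3′ on the strand of the gene, and capitals mark TGGGAA on either strand. HES1 is from chr3:194135898-194136147 on the plus strand, HES4 from chr1:1000098-1000347 on the minus strand, and HEYL from chr1:39639644-39639893 on the minus strand. For HES4 the RefSeq start lies inside the gene span of GENCODE given below, so that this window overlaps the start of that span.
HES1: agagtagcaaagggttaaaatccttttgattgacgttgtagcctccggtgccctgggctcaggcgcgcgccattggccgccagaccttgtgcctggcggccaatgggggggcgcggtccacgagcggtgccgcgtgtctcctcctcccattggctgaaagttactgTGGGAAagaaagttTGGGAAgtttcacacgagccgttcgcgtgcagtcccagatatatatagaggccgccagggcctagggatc
HES4: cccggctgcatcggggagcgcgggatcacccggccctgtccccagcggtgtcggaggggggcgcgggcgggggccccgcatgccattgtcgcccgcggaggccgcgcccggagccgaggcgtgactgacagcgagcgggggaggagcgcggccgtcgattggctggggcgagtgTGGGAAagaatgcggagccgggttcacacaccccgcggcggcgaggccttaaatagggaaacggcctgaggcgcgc
HEYL: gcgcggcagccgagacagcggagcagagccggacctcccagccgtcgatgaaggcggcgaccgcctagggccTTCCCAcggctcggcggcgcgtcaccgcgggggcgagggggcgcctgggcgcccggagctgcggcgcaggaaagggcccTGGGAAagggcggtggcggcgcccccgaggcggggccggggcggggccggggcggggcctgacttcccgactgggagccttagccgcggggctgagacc

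HES1, HES4 and HEYL each held the longer form GTGGGAA once on either strand, which 5.46% of 27305 promoters hold in a window of this length, and the 5 receptor and ligand promoters in the table did not. The shorter TGGGAA, which lies within GTGGGAA, was found 2 times in HES1, 1 time in HES4 and 2 times in HEYL, and 21.1% of all promoters hold it. In HES1 and HES4 the GTGGGAA match ends 78 and 70 bases before the RefSeq start, which for HES4 puts the match at the edge of the GENCODE span, and in HEYL 171 bases before it. The letters CACNAG, the N-box that HES proteins bind, occurred 3 times in HES1 and 1 time in NOTCH3, against 32% of all promoters with at least 1, and GACCACCCA, which GLI factors bind, in none of the 8, against 0.216% of all. A match is a description of the letters and not a site of binding.

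Per length of transcript the 10 genes fell into 3 levels. NOTCH2, HES1 and HES4 were the most abundant, with 320 ± 59.0, 312 ± 16.5 and 252 ± 109 normalized counts per kb of exon (mean ± SD over the 4 libraries, which are different conditions). HEY1 (88.5 ± 7.52), JAG1 (75.0 ± 11.4), JAG2 (51.1 ± 14.4), NOTCH1 (46.0 ± 13.2), NOTCH3 (41.7 ± 16.8) and DLL1 (33.3 ± 9.01) formed the middle, and HEYL was lowest at 6.15 ± 1.21. The ranges of neighbours in this order overlapped, apart from the steps from HES4 (at least 171) to HEY1 (at most 96.4) and from DLL1 (at least 22.7) to HEYL (at most 7.89). The exon lengths come from GENCODE v44 and need not be those of the annotation behind the counts.

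**Figure D1:**
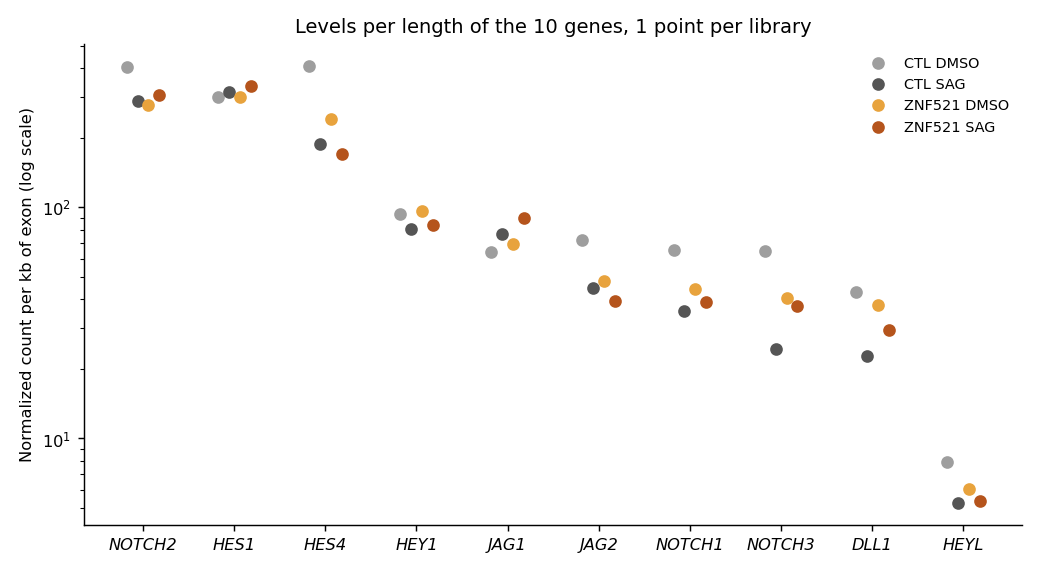
Normalized count per kb of exon on a log axis for the 10 genes, 1 point per library and no error bars, ordered by the mean. NOTCH2, HES1 and HES4 lie above 100 in every library and HEYL below 10, and the point of CTL-DMSO is the highest for 7 genes.

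With SAG, 8 of the 10 genes were lower and JAG1 and HES1 were higher, but none passed an adjusted p of 0.05 in edgeR's quasi-likelihood test with the kind of cells as block, where 0.0401% of all genes tested did. The p threshold of the study, 0.05 without adjustment (nominal below), was applied here to another test and another set of genes. At this threshold 5 of the 10 were lower and 0 higher. Of all genes tested, 5.12% were lower, 6.21% higher and 11.3% in either direction. The 5 were HES4, NOTCH3, DLL1, NOTCH1 and JAG2. DESeq2 at the same threshold gave 3 lower and 0 higher, against 1.04% and 1.8% of all genes tested. With no filter on low counts, 2 of the 10, HES4 and NOTCH3, passed the adjusted threshold for SAG (adjusted p of 0.00301 and 0.00809 from edgeR), where 223 of 20363 genes did. The median log2 fold change of the 10 genes was -0.43, beside 0.00055 over all genes tested. With ZNF521, 6 of the 10 were lower, again with 0 past the adjusted threshold (0.00668% of all genes). At the nominal threshold HES4 and JAG2 were lower and 0 higher, against 3.11% and 2.36% of all genes (5.48% in either direction). DESeq2 gave 0 lower and 0 higher, against 0.615% and 0.501% of all genes. The median log2 fold change from edgeR was -0.13, beside -0.0034 over all genes tested. Both comparisons use the same 4 libraries, CTL-DMSO included, so that they are not independent of each other.

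**Figure D2:**
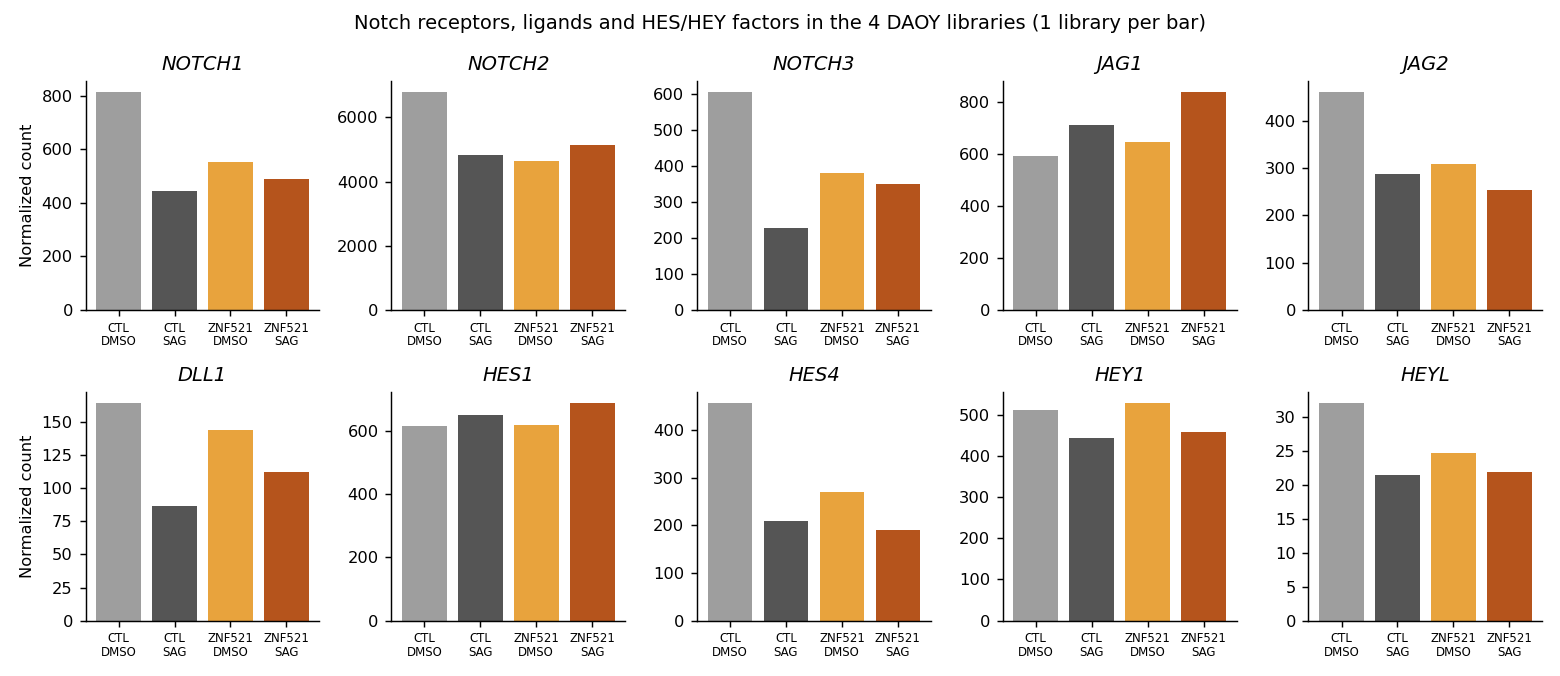
Normalized counts of the 10 genes in the 4 libraries, 1 bar per library from 0 and no replicates, with a separate vertical axis for each gene. CTL-DMSO holds the highest bar for NOTCH1, NOTCH2, NOTCH3, JAG2, DLL1, HES4 and HEYL, while HES1 runs only from 616 to 688.

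In 7 of the 10 genes CTL-DMSO was the highest library, against 34.5% of all genes tested, and the exceptions were JAG1, HES1 and HEY1. The excess over the mean of the other 3 libraries was 2.04-fold for HES4, 1.90-fold for NOTCH3, 1.64-fold for NOTCH1, 1.63-fold for JAG2, 1.44-fold for DLL1, 1.42-fold for HEYL and 1.40-fold for NOTCH2. The summed fibroblast and mural markers were highest in the same library, and their part in the result was not tested.

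Single pairs of libraries have no replicate check, and the ratios of 1.5-fold or more were in pairs that hold CTL-DMSO, except that of NOTCH3 between ZNF521-SAG and CTL-SAG. In CTL cells 6 of the 10 genes (NOTCH1, NOTCH3, JAG2, DLL1, HES4 and HEYL) were at least 1.5-fold lower with SAG and 0 higher, where 10.5% of all genes tested were lower and 8.65% higher. HEYL only just reached this size, with a ratio of 0.666 from 19 counts with SAG and 32 with DMSO. Its counting interval, of the kind described below, was 0.357 to 1.21, so that its place among the 6 is not firm. In ZNF521 cells 0 of the 10 were lower or higher by that much with SAG, where 3.39% and 2.79% of all genes were. Between ZNF521 and CTL cells in DMSO 2 genes, HES4 and NOTCH3, were at least 1.5-fold lower and 0 higher, against 8.65% and 6.77% of all genes. In SAG, 0 were lower and NOTCH3 was higher, against 2.8% and 3.37% of all genes.

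Among the receptors, NOTCH3, best known from the mural cells of arteries, varied most. In hg38, the build of all gene positions here, it spans 15159038 to 15200995 of chromosome 19 (minus strand). Its normalized count was 607 in CTL-DMSO, 229 in CTL-SAG, 381 in ZNF521-DMSO and 351 in ZNF521-SAG. In CTL cells it was thus 2.65-fold lower with SAG (95% interval 2.26 to 3.12), and in ZNF521 cells the ratio of SAG to DMSO was 0.922 (0.799 to 1.06). These intervals are exact Clopper-Pearson intervals of the counts of 2 libraries, here and below, and cover counting error only. Between ZNF521 and CTL cells NOTCH3 had a ratio of 0.627 (0.549 to 0.715) in DMSO and of 1.53 (1.29 to 1.82) in SAG, so that the directions were opposite. The fit over all 4 libraries gave a log2 fold change of -0.75 for SAG (standard error 0.248, adjusted p = 0.391 from edgeR) and of -0.066 for ZNF521 (standard error 0.248, adjusted p = 0.991 from edgeR). Without CTL-DMSO these were -0.38 and 0.68, the latter in the other direction. Fits without CTL-DMSO, here and below, drop the block. Their SAG value sets both SAG libraries against ZNF521-DMSO alone, so that it also holds part of any difference between CTL and ZNF521 cells. Their ZNF521 value sets both ZNF521 libraries against CTL-SAG alone, so that it also holds part of any difference between SAG and DMSO.

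NOTCH1, the receptor with the widest range of known roles (chromosome 9, 136494433 to 136546048, minus strand), had normalized counts of 815 in CTL-DMSO, 445 in CTL-SAG, 554 in ZNF521-DMSO and 490 in ZNF521-SAG. Only the first stood apart, and the other 3 lay within 1.24-fold of each other. With SAG it was 1.83-fold lower in CTL cells (1.62 to 2.07) and 1.13-fold lower in ZNF521 cells (1.003 to 1.27). The log2 fold change was -0.52 for SAG (standard error 0.186, adjusted p = 0.391 from edgeR) and -0.23 for ZNF521 (standard error 0.185, adjusted p = 0.975 from edgeR), and -0.24 and 0.23 without CTL-DMSO.

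NOTCH2 (chromosome 1, 119911553 to 120100779, minus strand) carried the most counts of the 10 genes, with normalized counts of 6797 in CTL-DMSO, 4824 in CTL-SAG, 4636 in ZNF521-DMSO and 5145 in ZNF521-SAG. The genome holds near-identical partial copies of it, the NOTCH2NL genes, so that its level is uncertain where reads could be split between them. SAG went with a lower level in CTL cells (ratio 0.710, 0.683 to 0.738) and a higher one in ZNF521 cells (ratio 1.11, 1.07 to 1.15). Over both kinds of cells the log2 fold change was -0.17 for SAG (standard error 0.182, adjusted p = 0.728 from edgeR), which turned to 0.0997 without CTL-DMSO. For ZNF521 it was -0.24 (standard error 0.182, adjusted p = 0.967 from edgeR), and 0.025 without that library.

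Of the ligands, JAG1 was the member that was higher with SAG. JAG1, a Jagged ligand that is needed in bile duct and heart development, spans 10637684 to 10673999 of chromosome 20 (minus strand). Its normalized count was 594 in CTL-DMSO, 710 in CTL-SAG, 645 in ZNF521-DMSO and 839 in ZNF521-SAG. Both SAG libraries were thus above both DMSO libraries. The ratio of SAG to DMSO was 1.20 (1.07 to 1.34) in CTL cells and 1.30 (1.18 to 1.44) in ZNF521 cells, and the log2 fold change was 0.32 (standard error 0.154, adjusted p = 0.450 from edgeR). For ZNF521 it was 0.17 (standard error 0.153, adjusted p = 0.984 from edgeR), with ratios of 1.09 (0.969 to 1.22) in DMSO and 1.18 (1.07 to 1.31) in SAG.

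JAG2, the other Jagged ligand (chromosome 14, 105140982 to 105168824, minus strand), went the other way. Its normalized count was 460 in CTL-DMSO, 286 in CTL-SAG, 308 in ZNF521-DMSO and 252 in ZNF521-SAG, so that each SAG library was below both DMSO libraries. It was 1.61-fold lower with SAG in CTL cells (1.38 to 1.88) and 1.22-fold lower in ZNF521 cells (1.04 to 1.44). For SAG the log2 fold change was -0.49 (standard error 0.174, adjusted p = 0.391 from edgeR), and -0.20 without CTL-DMSO. For ZNF521 the log2 fold change was -0.40 (standard error 0.174, adjusted p = 0.907 from edgeR), and without that library -0.032. The log2 ratio of ZNF521-SAG to CTL-SAG, which are matched for treatment, was -0.18.

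DLL1, the Delta ligand that is known from neural progenitors and the segmenting embryo (chromosome 6, 170282206 to 170306565, minus strand), had normalized counts of 165 in CTL-DMSO, 86.8 in CTL-SAG, 144 in ZNF521-DMSO and 112 in ZNF521-SAG. Here too both SAG libraries were below both DMSO libraries, but ZNF521 and CTL cells overlapped. With SAG it was 1.90-fold lower in CTL cells (1.44 to 2.52) and 1.28-fold lower in ZNF521 cells (1.005 to 1.64). The log2 fold change was -0.63 for SAG (standard error 0.215, adjusted p = 0.391 from edgeR) and 0.056 for ZNF521 (standard error 0.215, adjusted p = 0.991 from edgeR). Without CTL-DMSO, SAG was at -0.52, beside a log2 ratio of -0.36 between ZNF521-SAG and ZNF521-DMSO. The value for ZNF521 moved to 0.56, beside a log2 ratio of 0.37 between ZNF521-SAG and CTL-SAG. Exons of FAM120B, with 892 to 1187 counts, lie on the opposite strand within DLL1, and since the strand setting of the counting is not stated, reads of the pair cannot be told apart.

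**Figure D3:**
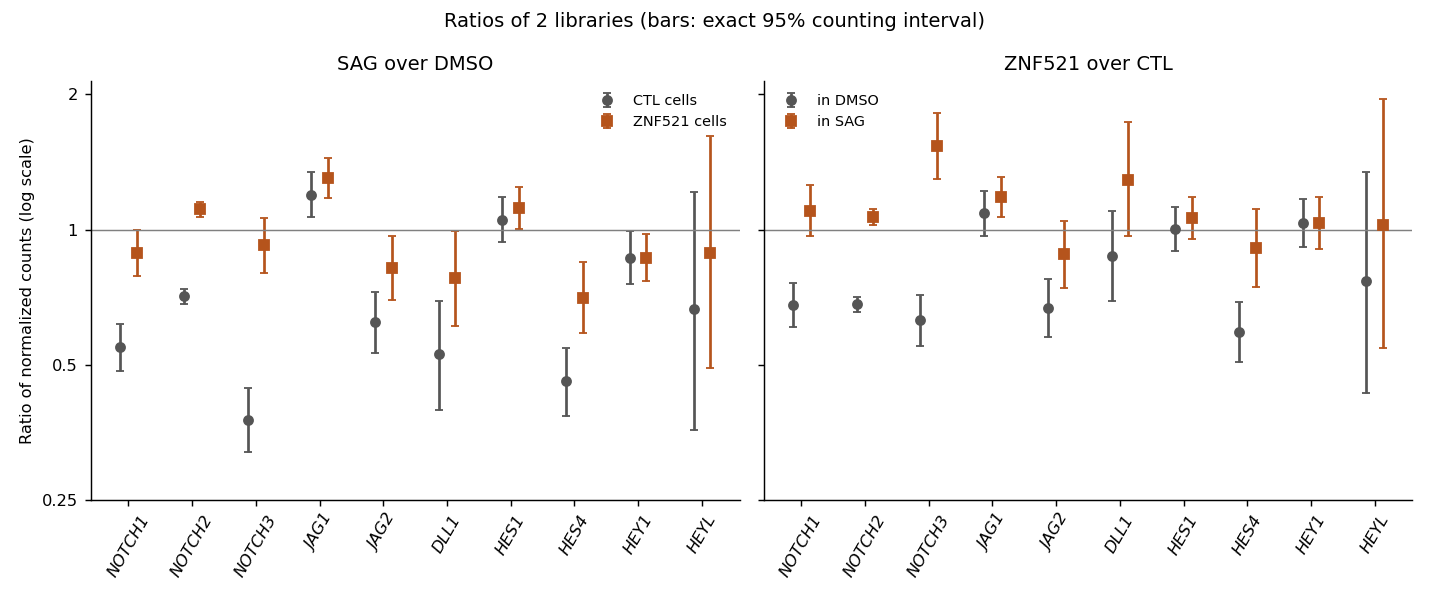
Ratios of normalized counts of 2 libraries on a log axis, with exact 95% counting intervals, for SAG over DMSO in CTL and ZNF521 cells (left) and for ZNF521 over CTL cells in DMSO and SAG (right). NOTCH3 shows the widest gap, at 0.377 and 0.922 on the left and 0.627 and 1.53 on the right, while both ratios of HEY1 with SAG are 0.866.

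Of the target genes, HES4 had the smallest nominal p in both comparisons among the 10. HES4 is a repressor close to HES1 that humans have and mice lack, and it spans 998962 to 1000172 of chromosome 1 (minus strand). Its normalized count was 457 in CTL-DMSO, 210 in CTL-SAG, 271 in ZNF521-DMSO and 191 in ZNF521-SAG. Within each kind of cells the SAG library was the lower, and CTL-DMSO was far above the rest. HES4 was 2.18-fold lower with SAG in CTL cells (1.83 to 2.60) and 1.42-fold lower in ZNF521 cells (1.18 to 1.70). ZNF521 cells were 1.69-fold below CTL cells in DMSO (1.45 to 1.97), and in SAG the ratio was 0.909 (0.745 to 1.11). The log2 fold change was -0.82 for SAG (standard error 0.190, adjusted p = 0.391 from edgeR) and -0.47 for ZNF521 (standard error 0.190, adjusted p = 0.893 from edgeR). Without CTL-DMSO, and so without the block, they were -0.45 and 0.13. The log2 ratio of ZNF521-SAG to CTL-SAG was -0.14, so that the positive value for ZNF521 is not that of the pair matched for treatment. The genes whose centred log2 normalized counts lay nearest to those of HES4 over the 4 libraries, among 9161, were CSPG4, a proteoglycan of mural cells and glial progenitors (Euclidean distance 0.0455), FAM171A2 (0.145) and WNK2, a kinase (0.189). Each was highest in CTL-DMSO, as HES4 was. Their transcripts had a GC content of 63.5%, 71.2% and 66.5% in that order, beside 73.8% for HES4.

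HES1 (chromosome 3, 194136148 to 194138732, plus strand) differed little among the libraries although it shares the GTGGGAA match with HES4. Its normalized count was 616 in CTL-DMSO, 648 in CTL-SAG, 617 in ZNF521-DMSO and 688 in ZNF521-SAG. The ratio of SAG to DMSO was 1.05 (0.938 to 1.18) in CTL cells and 1.12 (1.002 to 1.24) in ZNF521 cells. The log2 fold change was 0.12 for SAG (standard error 0.154, adjusted p = 0.791 from edgeR) and 0.034 for ZNF521 (standard error 0.154, adjusted p = 0.992 from edgeR). Among the 10 genes its highest library was the least far above its lowest, at 1.12-fold.

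HEY1, a repressor of heart and vessel development (chromosome 8, 79762371 to 79767857, minus strand), had normalized counts of 512 in CTL-DMSO, 443 in CTL-SAG, 529 in ZNF521-DMSO and 458 in ZNF521-SAG. Both SAG libraries were below both DMSO libraries by the same ratio, 0.866 in CTL cells (0.757 to 0.990) and 0.866 in ZNF521 cells (0.766 to 0.979). The log2 fold change was -0.21 for SAG (standard error 0.157, adjusted p = 0.610 from edgeR) and 0.036 for ZNF521 (standard error 0.157, adjusted p = 0.992 from edgeR). HEYL, its relative (chromosome 1, 39623435 to 39639643, minus strand), had only 19 to 32 counts a library. Its normalized counts were 32.2 in CTL-DMSO, 21.4 in CTL-SAG, 24.7 in ZNF521-DMSO and 21.9 in ZNF521-SAG, and all 4 of its ratios had intervals that include 1, so that no difference was detectable at this depth. In the fit HEYL had a log2 fold change of -0.37 for SAG (standard error 0.351, adjusted p = 0.693 from edgeR) and -0.20 for ZNF521 (standard error 0.351, adjusted p = 0.989 from edgeR).

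**Figure D4:**
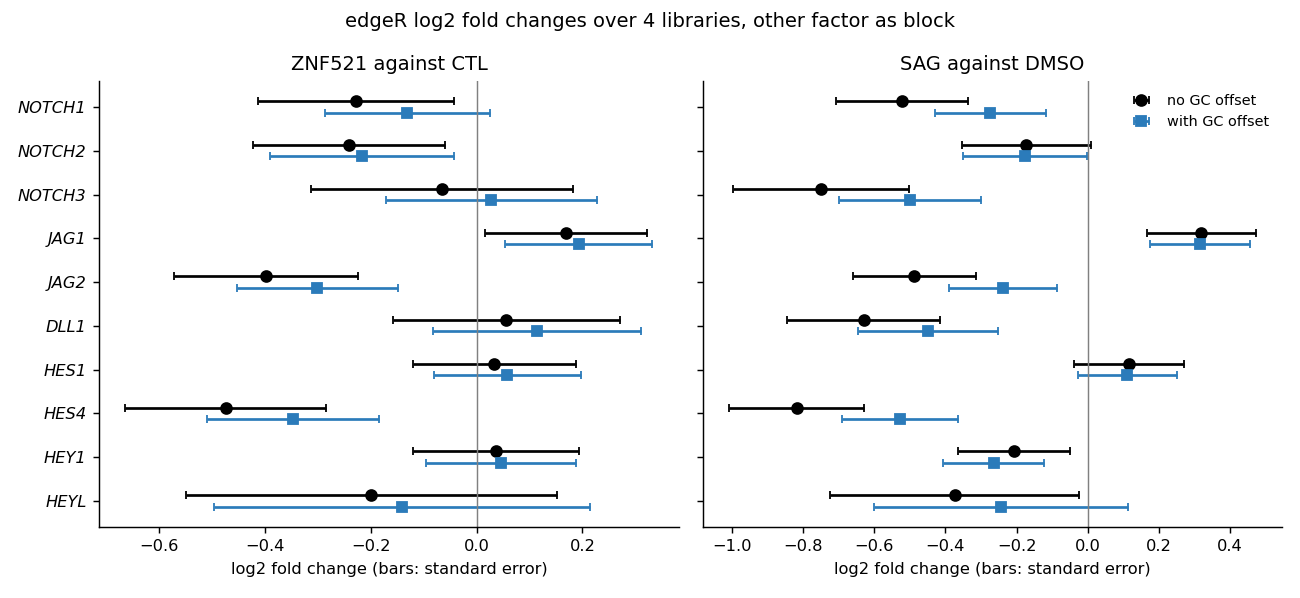
Log2 fold changes of the 10 genes from edgeR over the 4 libraries with the other factor as block, for ZNF521 against CTL (left) and SAG against DMSO (right), with bars of 1 standard error, without (circles) and with (squares) an offset for the GC content of transcripts. With the offset HES4 moves from -0.82 to -0.53 for SAG and JAG1 stays at 0.32.

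The values for SAG varied with the GC content of transcripts, across all genes and among the Notch genes, and the part of GC content in the result was tested only by an offset. When the tested genes were divided into 5 equal bins of GC content, the highest bin (58.5% to 76.0% GC) had a median log2 fold change of -0.24 for SAG, and 17.4% of its genes were lower at the nominal threshold, while in the lowest bin these were 0.26 and 0.103%. The 5 Notch genes in the highest bin were HES4 (73.8%), JAG2 (64.1%), NOTCH1 (63.5%), NOTCH3 (63.1%) and DLL1 (59.5%), and they were the same 5 that were lower at that threshold, with a median of -0.63. The 5 other genes, with a GC content of 46.7% to 55.9%, had a median of -0.17 and 0 lower at that threshold. HES4 lay above 99.9% of all genes tested in GC content. With an offset for GC content in the fit, the log2 fold change for SAG was -0.53 for HES4 (standard error 0.163), -0.50 for NOTCH3 (standard error 0.200), -0.45 for DLL1 (standard error 0.197), -0.27 for NOTCH1 (standard error 0.156) and -0.24 for JAG2 (standard error 0.152). HES4, NOTCH3 and DLL1 were then lower at the nominal threshold and JAG1 (0.32, standard error 0.139) higher, with adjusted p of 0.707 to 0.918 from edgeR. In that fit 3.11% of all genes tested were lower and 2.15% higher at the nominal threshold. For ZNF521 the offset left HES4 at -0.35 and JAG2 at -0.30, and NOTCH3 turned from -0.066 to 0.027.

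**Figure D5:**
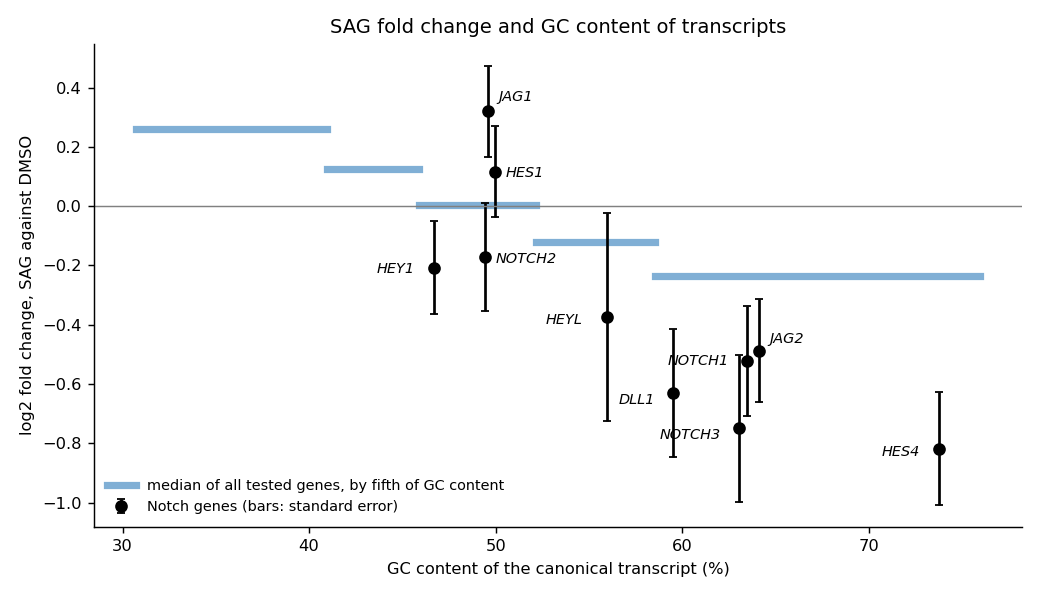
Log2 fold change for SAG against the GC content of the canonical transcript for the 10 Notch genes (points, bars of 1 standard error) and the median of all tested genes in each of 5 bins of GC content (horizontal bars over the range of that bin). The 5 genes above 58.5% GC lie from -0.49 to -0.82, below the -0.24 of their bin.

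The rest of the pathway was read from 10 lists, with 66 further genes of which 61 were tested. With SAG, 3 of these were lower and 2 higher at the nominal threshold, which is 4.92% and 3.28% beside 5.12% and 6.21% of all genes, and 0 passed the adjusted threshold. The lower ones were DTX2, a ubiquitin ligase of the Deltex family (-0.44), EPN1, an epsin that helps take up ligands (-0.35), and MIB2, a ligase for ligands (-0.34). The higher ones were HDAC2, a histone deacetylase of co-repressor complexes (0.44), and ITCH, a ligase that marks receptors for breakdown (0.33). With the GC offset none of the 61 was left at that threshold, where 3.11% of all genes were lower and 2.15% higher. For HDAC2 the library of CTL-DMSO was again the one apart, at 1086 normalized counts against 1708 to 1994 in the others, and its log2 fold change was 0.11 without it. Without CTL-DMSO the value was -0.24 for DTX2 and -0.14 for EPN1, while MIB2 at -0.29 and ITCH at 0.28 changed less.

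With ZNF521, 4 of the 61 were lower at the nominal threshold and 0 higher, or 6.56% beside 3.11% of all genes. Among them were SPEN, which helps hold target genes of RBPJ silent in the absence of Notch (-0.56), NEURL1B, a ligase for ligands (-0.45), and DTX4, another Deltex ligase (-0.41), with adjusted p of 0.888 to 0.910 from edgeR. With the GC offset 5 of the 61 were lower and 0 higher, where 3.44% of all genes were lower and 2.47% higher. SPEN stood at 2025 normalized counts in CTL-DMSO and at 993 to 1150 in the others. Without CTL-DMSO, SPEN was at -0.13, NEURL1B at -0.23 and DTX4 at -0.29.

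Of the machinery around the receptors, the members with the highest means in each list are given here. The gamma-secretase subunits APH1A and NCSTN had mean normalized counts of 3703 and 2175, the proteases FURIN and ADAM10 2026 and 1228, POFUT1 and RFNG, which attach or extend sugars on the receptors, 1892 and 552, and MIB1, the main ligase for ligands, 1608. In the nuclear complex SNW1 and CREBBP had 1453 and 1177, and of the proteins that restrain the pathway HDAC1 and NUMB had 2526 and 834. In the receptor, ligand and HES or HEY lists the genes of highest mean beyond the 10 were NOTCH4 (70.2), DLK1, an atypical ligand (162), DLL3 (99.6), HES6 (248) and HEY2 (79.1). Their log2 fold changes for SAG were -0.14, -0.43, -0.041, -0.33 and -0.11, and none was at the nominal threshold.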

How the data were processed

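RNA was sequenced as paired reads from 4 libraries. The authors aligned to hg38 and counted reads per gene with STAR (2.7.0e in the submitters' processing notes), and deposited raw counts. The deposited normalized signal is these counts divided by 1 size factor per library (median of ratios, DESeq2). The kit was strand-specific, but the annotation and strand setting of the counting are not given in the sources used here. A gene was tested if 2 or more libraries held 10 or more counts, by edgeR 4.0.16 in R 4.3.3 (TMM factors, quasi-likelihood F-test, additive terms for ZNF521 and SAG, Benjamini-Hochberg over all 14970 genes), which leaves 1 residual degree of freedom, moderated by a prior of 11.7. That residual also holds any interaction, and 2 libraries per level set the precision. The study itself used a paired test with a random variance model, on genes left after a filter on fold change from the gene's median. That filter was not applied here. GC content and exon lengths came from GENCODE v44, which matched 97.2% of gene symbols. The GC offset is the median log2 deviation per library in 20 bins of GC content. Alternatives were RLE factors, library size alone, other filters, DESeq2 1.42.0, limma 3.58.1, no block, and each library left out. On simulated counts for 14970 genes, edgeR recovered 85 of 100 genes with a 2-fold change for SAG and 87 of 100 for ZNF521, with 8 and 17 false calls among the unchanged genes. These counts were drawn from 1 mean profile for all libraries, with no trend with GC content, no library apart and no interaction. The recovery therefore need not hold for the real libraries, which differ in these respects.

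The 10 genes and all lists were chosen with earlier results of these data known. Named genes were the 10, list members whose normalized counts averaged 50 or more and whose unadjusted p was 0.05 or less (up to 6 per comparison), up to 2 per list by highest mean, ZNF521 and GLI1, and the 3 genes nearest to HES4 in profile. A list member that the rule names, and the promoter of the vector, are not reported here.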

Additional observations from a re-analysis of the deposited data

Results flagged for a closer look

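NOTCH2 and NOTCH3 had effects of opposite direction at the 2 levels of the other factor, each beyond the counting error of its libraries. The ratio of ZNF521 to CTL cells was 0.682 in DMSO and 1.07 in SAG for NOTCH2, and 0.627 in DMSO and 1.53 in SAG for NOTCH3. The ratio of SAG to DMSO for NOTCH2 was 0.710 in CTL cells and 1.11 in ZNF521 cells. With 1 library per condition the difference was not tested.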

How the results depend on the processing

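With 1 library per condition and 1 residual degree of freedom, the counts of genes past a threshold depend on the setting, and HEYL is limited by its 19 to 32 counts. No paired analysis was possible because the labels give no replicate numbers to pair by, beyond matching libraries by treatment or kind of cells, which is the block of the fit. RLE factors, library size alone, limma-trend and a mean count of at least 50 (which drops HEYL) changed none of the counts of the 10 genes past either threshold (adjusted or nominal) and reversed no direction. For SAG, the 5 genes lower at the nominal threshold became 3 with DESeq2 (1.04% of all genes) and 3 with the GC offset (3.11%). The 0 higher became 1 with the GC offset (2.15% of all genes) and 1 without the block (5.21%). With no filter on low counts 2 genes, HES4 and NOTCH3, passed the adjusted threshold for SAG (adjusted p of 0.00301 and 0.00809 from edgeR), where 223 of 20363 genes did. For ZNF521, the 2 lower became 1 with the GC offset (3.44% of all genes), 0 with DESeq2 (0.615%) and 0 without the block (1.88%). The ZNF521 value of NOTCH3 turned to 0.027 with the GC offset. Fits without 1 library hold the tested factor alone and rest 1 level on a single library that is assumed to vary like the others. Over these 4 fits the number of genes lower at the nominal threshold ran from 1 to 6 for SAG and from 0 to 5 for ZNF521, the number higher from 0 to 1 and from 0 to 2, and the number past the adjusted threshold from 0 to 7 (7 without ZNF521-DMSO, where 4513 of 14805 genes passed) and from 0 to 5 (5 without CTL-SAG, where 2340 of 14857 did). In both of these fits CTL-DMSO stands alone for its level. The highest numbers of genes lower at the nominal threshold also came from these fits, for SAG and for ZNF521 respectively. There the share of all genes tested that were lower was also the largest of the 4 fits, and far above the smallest. Whether the 10 genes exceeded that share was not tested. Log2 fold changes for SAG ran from -0.46 to 0.10 for NOTCH2, from -1.21 to -0.45 for HES4, from -1.11 to -0.38 for NOTCH3, from -0.81 to -0.24 for NOTCH1, from -0.79 to -0.20 for JAG2, from -0.83 to -0.46 for DLL1 and from 0.20 to 0.44 for JAG1. Those for ZNF521 ran from -0.66 to 0.23 for NOTCH1, -0.49 to 0.025 for NOTCH2, -0.75 to 0.68 for NOTCH3, -0.032 to 0.36 for JAG1, -0.39 to 0.56 for DLL1, -0.051 to 0.12 for HES1, -1.01 to 0.13 for HES4, -0.071 to 0.16 for HEY1 and -0.48 to 0.12 for HEYL, and for JAG2 kept their direction, from -0.74 to -0.032. The cause of these shifts was not tested. All 40 ratios of 2 libraries stayed within their counting intervals with TMM-scaled sizes or total counts.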
